A study of Mus musculus with 6 samples.

Results

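The young single oocytes were 35 mouse oocytes arrested at metaphase II (MII), sequenced as 1 library each and deposited as 1 of the 6 samples of the series. They were taken as the 35 columns named young among the 94 columns of single oocytes. The labels gave their cell type as oocyte, their stage as MII, their age only as young and their treatment as not applicable, and they carried no agent. The sources used here gave no strain, number of mice, way of collection or sequencing batch. The oocytes are therefore the cells of 1 sample, and the spread between them may include a spread between mice. Every value below describes these 35 oocytes, and no p-value was derived from them.

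An MII oocyte has finished the first meiotic division and waits for fertilisation with its chromosomes held on the spindle. It is almost silent in transcription, so its RNA is a stock made during growth, which is stored, translated or degraded as the oocyte matures. Part of that stock is kept with short poly(A) tails, and a method that primes on the tail reads both the amount of a transcript and its tail. Smart-seq2 is such a method: it copies polyadenylated RNA into full-length cDNA and amplifies it by PCR. ERCC spike-ins are synthetic RNAs added to a lysate as a fixed mixture. The proportions within the mixture are the same for each oocyte, while spike-in read counts also depend on how much RNA the oocyte itself holds.

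Total gene counts ran from 5480050 to 11894782 per oocyte (median 8564642). Genes with a count numbered 14140 to 17575 (median 16539), and 13960 to 16378 (median 15755) after each oocyte was thinned to the smallest total. No columns were identical among 595 pairs, and the Pearson correlation of log2(CPM + 1) between oocytes, over 8230 genes, ran from 0.889 to 0.979 (median 0.955). CPM stands for counts of a gene per 1000000 gene counts. In 5 oocytes, numbered 6, 13, 18, 24 and 25, the median correlation with the others was under 0.94. These 5 also had totals at the lower end, from 5480050 to 7358675, and 14140 to 14763 genes with a count.

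The defining markers of oocytes were high in each library. Gdf9, a growth factor that oocytes secrete towards granulosa cells, ranged from 6733 to 13050 CPM. H1foo, the linker histone of oocytes, ranged from 8582 to 12645 CPM, and Spin1, a reader of histone marks, from 10336 to 21049 CPM. Zp3, a protein of the zona pellucida, ranged from 155 to 534 CPM. Markers of cumulus and granulosa cells summed to 814 to 1477 CPM, of which Serpine2 gave 728 to 1381 CPM. In that list 8 of 27 genes had no count in any oocyte, among them Foxl2, Fshr, Amh and Inhbb, and 4 had a median of at least 5 CPM, namely Serpine2, the aromatase gene Cyp19a1, Nr5a2 and Kitl. Cyp19a1 stood at 44.6 to 104 CPM with a count in each oocyte. Blood and immune markers summed to 4.74 to 21.3 CPM, most of it from C1qb at 3.1 to 16.6 CPM, and sperm markers to 0.88 to 5.5 CPM. Markers of stroma, theca and endothelium summed to 103 to 235 CPM, with 6 of 14 genes at no count, among them Col1a2 and Col3a1, and with Pecam1, an adhesion molecule, at 88.9 to 227 CPM. The part of such RNA in the results below was not tested.

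Gene counts per ERCC count, the number of reads from genes for each read from spike-ins, differed 8.04-fold between the lowest and the highest oocyte. The ratio ran from 18.3 to 147 with a median of 63.7 and a coefficient of variation (CV, the SD divided by the mean) of 0.568. The CV was 0.565 for the ERCC count and 0.166 for the gene count. The Spearman rho of the ratio was -0.92 with the ERCC count and 0.52 with the gene count over 35 oocytes, and these measures share their terms by construction.

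ERCC counts fell into 2 sets with a gap from 110006 to 184609. In 18 oocytes they ran from 70141 to 110006 and the ratio from 63.7 to 147. In the other 17 oocytes they ran from 184609 to 427387 and the ratio from 18.3 to 48.8. Within a set the ratio was much less spread, with a CV of 0.214 in the oocytes of low ERCC count and 0.248 in those of high ERCC count. The rho of the ratio was there -0.69 with the ERCC count and 0.58 with the gene count in the low set, and -0.66 and 0.70 in the high set. Pearson's r was -0.62 and 0.73 in the low set, and -0.72 and 0.65 in the high set, so the count with the stronger relation differed with the set and the measure. Gene totals of both sets overlapped, at 6450627 to 11894782 and 5480050 to 10808785. The sets were seen in the data and named in no label. They were split by the ERCC count, which divides the ratio. Their separation in the ratio and its smaller spread within a set thus follow in part by construction. The RNA content of an oocyte, the volume of spike-in added and losses in the tube cannot be told apart from this ratio.

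**Figure D1:**
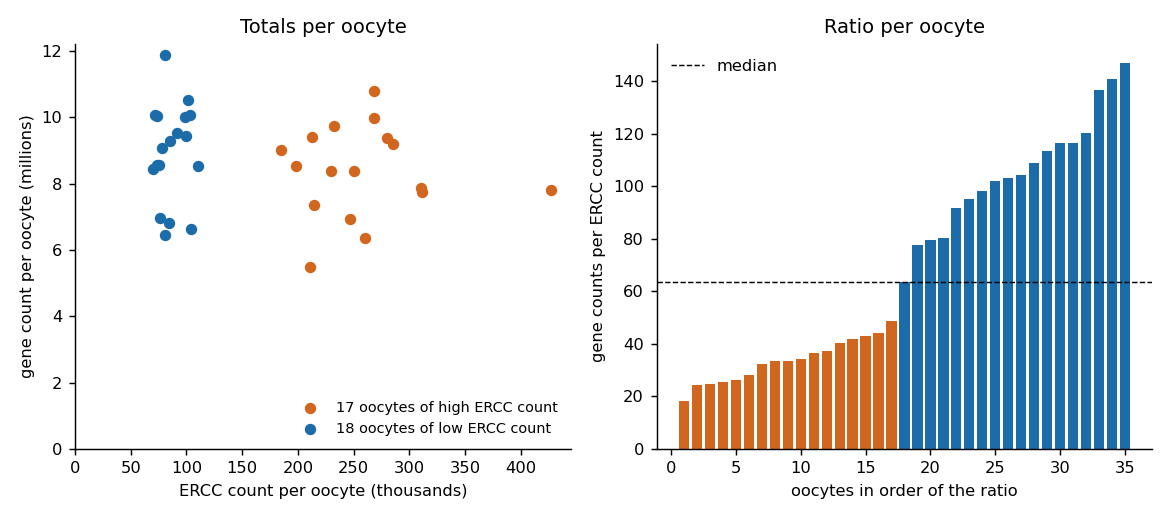
Left, gene count against ERCC count for each of the 35 oocytes (points). Right, gene counts per ERCC count for each oocyte in order of the ratio (bars), with the median of 63.7 as a dashed line. The 18 oocytes of low ERCC count (blue) all lie above the 17 of high ERCC count (orange) in the ratio, while their gene counts overlap.

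Few single transcripts had a rho of 0.7 or more in size with this ratio, though weaker relations were common. Across 6330 genes with a mean normalised count of at least 100, the Spearman rho between CPM and the ratio had a median of 0.01, with 33 genes at 0.7 or more and 41 at -0.7 or less. The highest was Rab38, a small GTPase of lysosome-related organelles, at rho 0.80 and 84.8 to 195 CPM. The next were Gdap2, Vcl (vinculin), Ggta1, Trmt1l, Rlim, Mmp24 and Ammecr1l, down to a rho of 0.75. The lowest was Erich5 at rho -0.82 and 104 to 332 CPM, followed by Pdcd5, Gpatch11, Naa30, the ribosomal protein gene Rpl17, Cbx1 (a heterochromatin protein), Pafah1b1 and the proteasome gene Psma4, up to -0.76. CPM and the ratio share the library and its depth. The counts at 0.7 rested on single oocytes: leaving out 1 oocyte at a time gave 17 to 58 genes at the upper end and 26 to 73 at the lower end, and without the 2 oocytes farthest from the median ratio 11 genes were left at the upper end. Within a set more genes passed. In the oocytes of low ERCC count 354 were at 0.7 or more and 392 at -0.7 or less. In those of high ERCC count the numbers were 157 and 303. A large rho is more common with fewer oocytes, and the part of this was not tested.

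The 2 sets of oocytes differed little in composition. For 0 of the 6330 genes did the CPM ranges of the sets not overlap. The mean CPM differed by at least 2-fold for 1 gene, Snrnp70, a protein of the U1 spliceosomal particle, whose values ran from 4.33 to 45.9 CPM in the oocytes of low ERCC count and from 17.8 to 101 CPM in those of high ERCC count (means 23.0 and 48.8). Tacc3, a spindle protein, had means of 79.8 and 136 CPM. In the other direction Mid1, a microtubule-associated ubiquitin ligase, had means of 25.5 and 15.01 CPM. The ranges of these 3 genes overlapped between the sets.

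The most abundant transcripts were ranked by counts per exonic length, scaled to a total of 1000000 in each oocyte, since counts alone favour long genes. Zbed3, a zinc finger protein of the subcortical maternal complex, led with a level of 41166 over the summed oocytes and a range of 25215 to 50613. H1foo followed at 28246, Bcl2l10, an apoptosis regulator abundant in oocytes, at 19855, Gdf9 at 16515, Tcl1, a coactivator of Akt, at 13224, and Spin1 at 11000. The 20 leading genes made up 23.1% of the length-scaled total, from 21.2 to 24.6% in single oocytes, and 183 genes made up 50% of it. Of these 20 genes, 7 were among the first 20 in each of the 35 oocytes.

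Several of the others have known roles in the egg. Oosp1 (a level of 7191) encodes an oocyte-secreted protein and Oas1d (7166) an oocyte form of oligoadenylate synthetase. Dppa3 (6709) protects maternal DNA methylation in the zygote. Rfpl4 (6415) is an oocyte RING finger-like protein, Btg4 (5769) recruits the deadenylase that clears maternal mRNA, and Trim61 (5758) belongs to the tripartite motif family. E330034G19Rik (8618), E330021D16Rik (8241), D6Ertd527e (6051) and AU022751 (5580) completed the nuclear genes. By counts, with no length scaling, the first 5 were Zbed3 (28389 CPM), Spin1 (15293), H1foo (10486), Gdf9 (10368) and Tcl1 (7541), and 14 of the 20 genes stayed among the first 20.

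**Figure D2:**
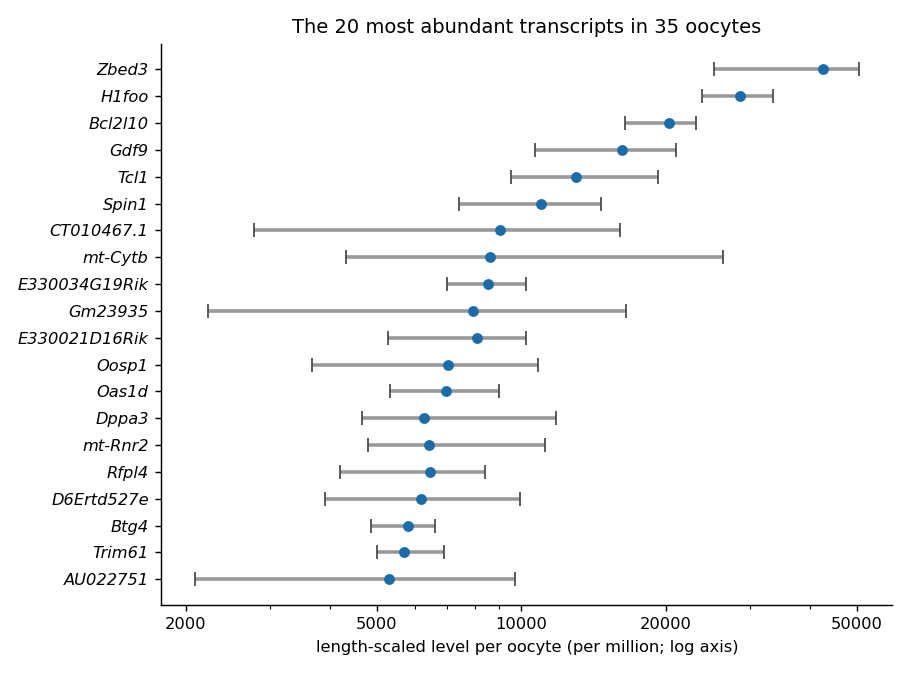
Level per exonic length, scaled to a total of 1000000, of the 20 most abundant genes on a log axis. Dots are medians over 35 oocytes and lines run from the lowest to the highest oocyte: Zbed3 spans 25215 to 50613, while the mitochondrial mt-Cytb spans 4322 to 26342.

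These abundant transcripts differed in how evenly the oocytes carried them. Trim61 had the smallest CV of the 20, 0.104, with 3085 to 4369 CPM, and Btg4 followed at 0.109 with 3767 to 5327 CPM. H1foo and Bcl2l10 were at 0.117 and 0.118. At the other end stood mt-Cytb, a subunit of respiratory complex III, with a CV of 0.492 and 1473 to 9635 CPM. AU022751 had a CV of 0.323 with 1426 to 6364 CPM, and Dppa3 of 0.318 with 1240 to 3379 CPM. Levels of neighbours in the order, such as Oosp1 and Oas1d, overlapped across oocytes.

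Of the 20 entries, 4 were not protein-coding nuclear genes: mt-Cytb, mt-Rnr2, CT010467.1 and Gm23935. The mitochondrial ribosomal RNA mt-Rnr2 ranked 15 at a level of 6599, with 2272 to 5436 CPM and a CV of 0.209. The last 2 need care. CT010467.1, annotated as ribosomal RNA on the minus strand of chr17:39846353-39848827 (GRCm38), stood at 2186 to 12215 CPM. It shares its span with the entries Gm42418 and AY036118, and the strand setting of the counting was not given. Gm23935 is annotated as a miRNA of 57 bases at chr16:11144125-11144181 on the plus strand, inside the span of Zc3h7a, which lies on the other strand. Its rank of 10 per length came from only 41.1 to 288 CPM (median 142), which by counts alone was rank 1413. Its whole sequence is shown because it is also held, letter for letter, by the entries Gm24245 and Gm24270, so reads cannot be assigned to 1 of them with certainty. Gm24270 stood at 3.33 to 17.5 CPM and Gm24245 at no more than 0.365 CPM. The sequence, 5′ to 3′ from the GENCODE M21 transcripts of GRCm38, is G- and C-rich at 73.7%.
Gm23935: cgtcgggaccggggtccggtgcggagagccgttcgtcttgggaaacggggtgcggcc

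The spread of each gene was set against spike-ins of similar abundance. Counts were divided by size factors, the CV over the 35 oocytes was taken, and each gene was compared with the median CV of the 9 ERCC rows nearest in mean count. A gene was called wide at a ratio of 2 or more and narrow at 0.5 or less. Of 11316 genes with a mean of at least 10 counts and within the range of ERCC rows, 1370 were wide, which is 12.1%, and 7 were narrow, which is 0.0619%. The median ratio was 1.29, and 9280 genes (82.0%) had a larger CV than the median of the ERCC rows near them. Above all 9 near rows lay 2703 genes (23.9%). Another 8 genes lay above the highest ERCC row and had no spike-in to be set against: Zbed3, Spin1, H1foo, Gdf9, Tcl1, Bcl2l10, CT010467.1 and Plat, the tissue plasminogen activator, which ranged from 4295 to 9913 CPM with a CV of 0.227.

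The share of wide genes depended on where the spike-ins lay. It was 1.95% for mean counts of 10 to 30, 11.1% for 300 to 1000 and 48.6% for 1000 to 3000. At that last step the median CV of genes went from 0.221 to 0.182 and that of the near ERCC rows from 0.178 to 0.0840, and only 3 ERCC rows lay between 1000 and 3000. Of the 1744 genes with a mean of at least 1000 counts, 855 were wide (49.0%), and this is the figure to read abundant genes against. A curve fitted through all ERCC rows gave 815 wide genes in place of 1370. Dividing genes by the size factors of the ERCC rows gave 9168, a scaling that by construction adds the spread of the gene to ERCC ratio to each gene.

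**Figure D3:**
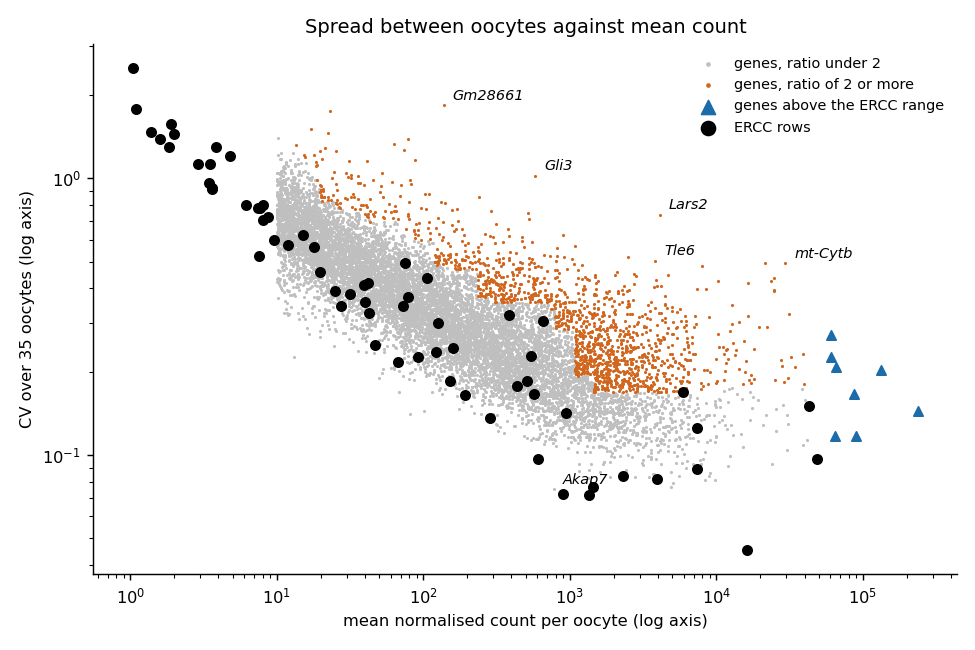
CV over 35 oocytes against mean normalised count, both on log axes, for genes with a ratio to the ERCC CV under 2 (grey), genes at 2 or more (orange), genes above the ERCC range (blue triangles) and ERCC rows (black). Most genes lie a little above the median of near ERCC rows, at a median ratio of 1.29, and wide genes become common past a mean of 1000 counts, where ERCC rows are few.

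Among genes with a mean of at least 1000 counts, base composition went with spread. In 4 groups of 435 genes each, the group richest in G and C (50.8 to 73.7%) had a median ratio of 2.39 with 291 wide genes, and the poorest (33.1 to 42.8%) one of 1.85 with 174. By exonic length the medians were 2.01, 1.97, 1.96 and 2.00 from the shortest group to the longest. Over all genes assessed they were 1.17, 1.30, 1.34 and 1.36 in that order, with 8.87% wide in the shortest group and 14.98% in the longest, and by G and C content 1.25, 1.25, 1.29 and 1.39. The part of base composition in amplification or in the oocytes was not tested.

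The 20 genes of largest ratio, among those with a mean of at least 100 counts, are described in 4 sets and 2 single genes. The sets were seen in the data, from oocytes that shared the highest values, and they are not separate groups. Wdr26 of the third set had a Pearson r of 0.64 with Wtap of the first and 0.63 with Lars2 of its own. Tle6 of the fourth had an r of 0.63 with Med25 of the second and 0.53 with Ldhb of its own. The first held Lrrc8a, Wtap, Actr2 and mt-Cytb, with oocytes 6, 13 and 24 among the 4 highest of each. Lrrc8a, a subunit of the volume-regulated anion channel, ranged from 159 to 758 CPM (median 247; ratio 6.17). Wtap, a member of the RNA adenosine methyltransferase complex, ranged from 514 to 2296 CPM (median 796; ratio 5.73). Actr2, a core subunit of the actin-nucleating Arp2/3 complex, ranged from 140 to 538 CPM (median 205; ratio 5.31). These oocytes are among the 5 least like the others, and without those 5 the ratios were 3.30, 3.23 and 3.24.

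The second set ran the other way. Med25, a Mediator subunit, was at 23.4 to 260 CPM (median 125; ratio 5.04). Mier2, a partner of histone deacetylases, was at 80.1 to 718 CPM (median 323; ratio 5.38), and Phf1, a Polycomb-associated protein, at 85.9 to 681 CPM (median 303; ratio 5.27). Oocyte 17 was the highest for Mier2 and Phf1. Over the 35 oocytes Med25 and Lrrc8a had a Pearson r of -0.85, and Med25 and Mier2 one of 0.93. The relation of the first and the second set to the spike-ins is given below, with the first axis of variation.

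The third set held Lars2, Yap1, Pcbp1, Wdr26 and Pdcd7. Lars2, the mitochondrial leucyl-tRNA synthetase at chr9:123366927-123462666, had the largest ratio of all, 8.79. It ranged from 176 to 1665 CPM with a median of 352, and 5 oocytes (4, 26, 29, 33 and 34) lay between 1087 and 1665 CPM, apart from the next at 702. Yap1, the Hippo pathway coactivator, was at 78.6 to 431 CPM (median 150) and Pcbp1, a poly(C)-binding protein, at 79.2 to 524 CPM (median 230). Both were highest in oocyte 18, with oocytes 26 and 29 among the 4 highest of each. Wdr26, a subunit of the CTLH ubiquitin ligase, and Pdcd7, of the minor spliceosome, were highest in oocyte 18, with r of 0.91 between them.

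The fourth set held Tle6, Nlrp5, Zp1, Ldhb, Miox and Mtmr14. Tle6 and Nlrp5 encode members of the subcortical maternal complex, which is needed for the cleavage divisions after fertilisation. Tle6 ranged from 106 to 1143 CPM (median 396; ratio 6.004), and Nlrp5 from 286 to 1420 CPM (median 456; ratio 5.33). Zp1, which cross-links the filaments of the zona pellucida, ranged from 112 to 485 CPM (median 153; ratio 5.24). Oocytes 15, 16, 22 and 30 were the 4 highest for Tle6, Zp1, Mtmr14 and Miox. Ldhb, a lactate dehydrogenase, ranged from 1063 to 6667 CPM (median 2098; ratio 5.54), and Miox, myo-inositol oxygenase, from 55.6 to 389 CPM (median 99.6; ratio 5.90). Mtmr14, a phosphoinositide phosphatase, was at 199 to 984 CPM (median 391). The r was 0.92 between Tle6 and Mtmr14 and 0.90 between Nlrp5 and Ldhb. On a robust CV, taken from the median absolute deviation so that a few oocytes move it little, Zp1 had a ratio of 1.82. Oocyte 30 was the highest for Zp1 and Miox, and without it their ratios were 3.44 and 3.35. Without oocyte 15 the ratio of Miox was 3.86, with a CV of 0.556 in place of 0.570 and a near ERCC CV of 0.144 in place of 0.0966.

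Gli3 and Gm28661 stood alone. Gli3, a transcription factor of the Hedgehog pathway, ranged from 0.411 to 256 CPM (median 46.0; ratio 5.73), and 10 oocytes were above 2 times the median. It had a count in all 35 oocytes. Gm28661 was at 83.1, 123 and 124 CPM in oocytes 10, 19 and 26 and at 3.77 to 12.3 CPM in the other 32. Its CV of 1.84 (ratio 7.56) rests on those 3 oocytes, and on the robust CV the ratio was 1.27.

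**Figure D4:**
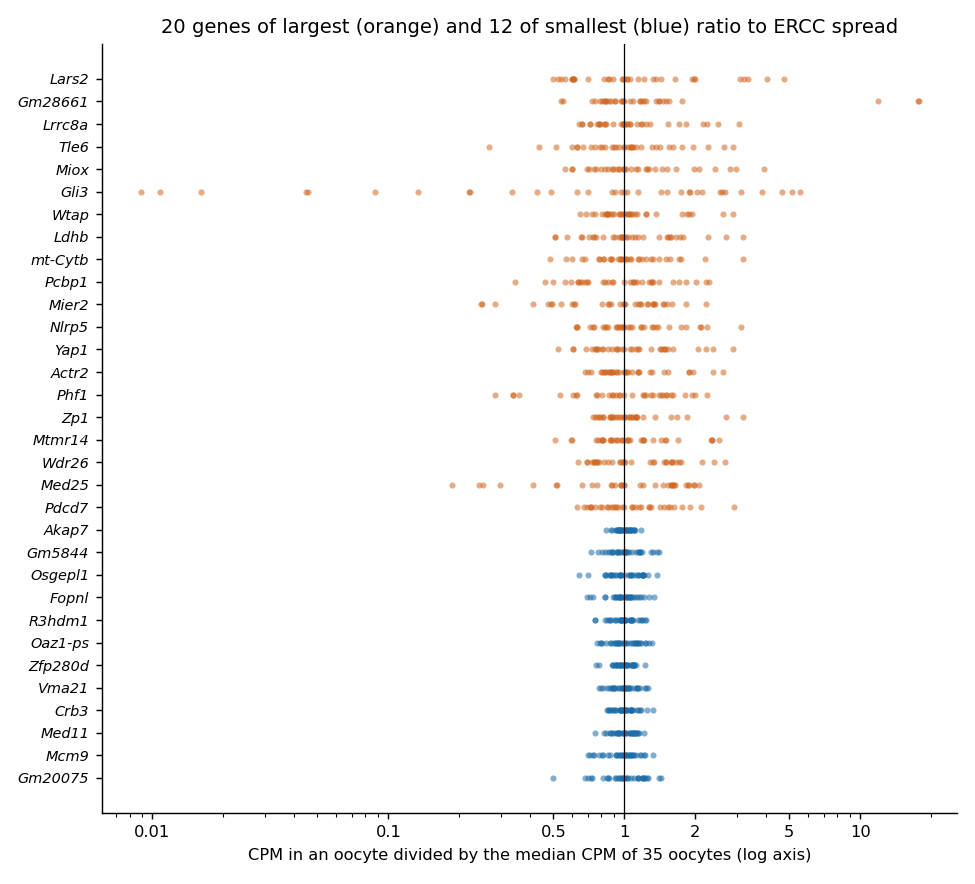
CPM of each oocyte divided by the median of the 35 oocytes, on a log axis, for the 20 genes of largest ratio to ERCC spread (orange) and the 12 of smallest (blue). Each point is 1 oocyte: Gm28661 has 3 oocytes far above the rest, Gli3 spreads from 0.411 to 256 CPM, and the 12 genes of smallest ratio stay close to their medians.

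Gm28661 is an unprocessed pseudogene on the minus strand of chr1:24614885-24615565, a nuclear copy of mitochondrial DNA. Its 681 bases are identical to part of mt-Co2, a 684-base gene of cytochrome c oxidase at chrM:7013-7696. The first 60 bases of both are shown because a read that lies wholly in the shared bases would fit both. How such reads were counted was not given, so the nuclear or mitochondrial origin of these counts cannot be settled here. The 60 bases are printed 5′ to 3′ from the GENCODE M21 transcripts of GRCm38, from chr1:24615506-24615565 (minus strand) and chrM:7013-7072 (plus strand), and no base differs.
Gm28661: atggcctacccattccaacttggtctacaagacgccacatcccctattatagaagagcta
mt-Co2: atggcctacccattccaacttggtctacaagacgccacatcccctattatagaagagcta

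The neighbouring copies Gm28437 and Gm10925 matched mt-Co3 (783 of 784 bases) and mt-Atp6 (678 of 681 bases) in the same way. The mitochondrial genes matched by these copies had low counts. Per length, mt-Co2 had a median level of 31.4 on the scale of 1000000, mt-Co3 of 24.1 and mt-Atp6 of 39.9, against 3848 for mt-Co1, which encodes another subunit of the same enzyme as mt-Co2 and mt-Co3. Low levels were also seen for mt-Atp8 (1.77) and mt-Nd4l (1.89), whose copies were not searched for. In oocytes 10, 19 and 26, mt-Co2 stood at 6.82, 9.77 and 13.7 CPM, against 2.38 to 9.44 CPM in the other 32. It was thus a little higher than in the other 32 in oocytes 19 and 26, by far less than the entry of the nuclear copy. Gm28437 and Gm10925 were at 5.99 to 9.37 and 22.9 to 61.8 CPM there, within the ranges of the other 32.

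The first axis of variation between oocytes ran alongside the spike-ins. In a principal component analysis of log2(CPM + 1) over 8230 genes, the first component held 23.2% of the variance, and its Pearson r with the first component of 26 ERCC rows was 0.90. The latter was computed from spike-ins alone and held 64.6% of their variance. The r was 0.93 in the 18 oocytes of low ERCC count and 0.88 in the 17 of high ERCC count, and 0.81 without the 5 oocytes least like the others. The first component also had an r of 0.90 with the thinned number of genes detected and of 0.73 with the gene total. Of the 1370 wide genes, 328 (23.9%) had an r of at least 0.7 in size with the ERCC component, against 717 of all 11316 genes assessed (6.34%). At a mean of at least 1000 counts the shares were 245 of 855 wide genes (28.7%) and 301 of all 1744 (17.3%). Among the genes of largest ratio, that r was -0.93 for Lrrc8a, -0.92 for Wtap, -0.93 for Actr2 and -0.83 for mt-Cytb. It was 0.76 for Med25, 0.73 for Mier2 and 0.65 for Phf1. On the SD of log2 counts, removing that component took the ratio of Lrrc8a from 5.12 to 2.32. Wtap went from 4.65 to 2.20, Actr2 from 4.46 to 1.76 and mt-Cytb from 4.36 to 3.83. Med25 went from 6.77 to 5.50, Mier2 from 6.66 to 5.40 and Phf1 from 6.36 to 5.79.

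The genes named at the ends of the components had a mean of at least 20 CPM. At the end of the first axis held by oocytes 6, 24, 25 and 13 stood H3f3b, which encodes the replacement histone, at 1846 to 6117 CPM (r -0.97 with the first component), with Sub1, Paip1, Ccdc6 and Pld1. At the other end stood Natd1 at 90.2 to 390 CPM (r 0.97), Klhdc3, Pik3cd (a PI3-kinase catalytic subunit), Tfe3 and Med25. The 150 genes at the first end had a median GC content of 45.0% and those at the other end 53.7%, against 47.8% over all genes analysed. The share of mitochondrially encoded counts, 0.688 to 1.92%, was highest in oocyte 6 and had an r of -0.72 with the thinned number of genes detected. What part handling, amplification or the state of the oocyte had in this axis was not tested.

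The second component held 13.2% of the variance and had an r of -0.11 with the ERCC component, and the highest r of a single ERCC row with it was 0.304 in size. The highest oocytes were 18, 26 and 29. Its positive end was led by Tet3, the dioxygenase that oxidises methylated DNA in the zygote, at 1027 to 2449 CPM (r 0.96). It also held the chromatin regulators Setd1b and Chd7, and Ttyh3, Otud5, Yap1, Cpeb3 (a regulator of polyadenylation), Lars2, Dusp7 and Med13l. The negative end was led by Cdc42se2 at 1374 to 2532 CPM (r -0.93), with Ptp4a1, Ap3m1, Nup93 (a nuclear pore protein), Mcm4 (a subunit of the replicative helicase) and Cul1. The 150 genes at the positive end had a median exonic length of 7373 bases, against 4795 over all genes analysed. The third and the fourth component held 6.24 and 4.95%. Among genes with that minimum the fourth was led by the ribosomal protein gene Rpl41 at 18.3 to 93.6 CPM (r 0.88) and Ldhb (r 0.85), with Miox and Nlrp5, and its highest oocytes were 13, 30, 15 and 22.

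**Figure D5:**
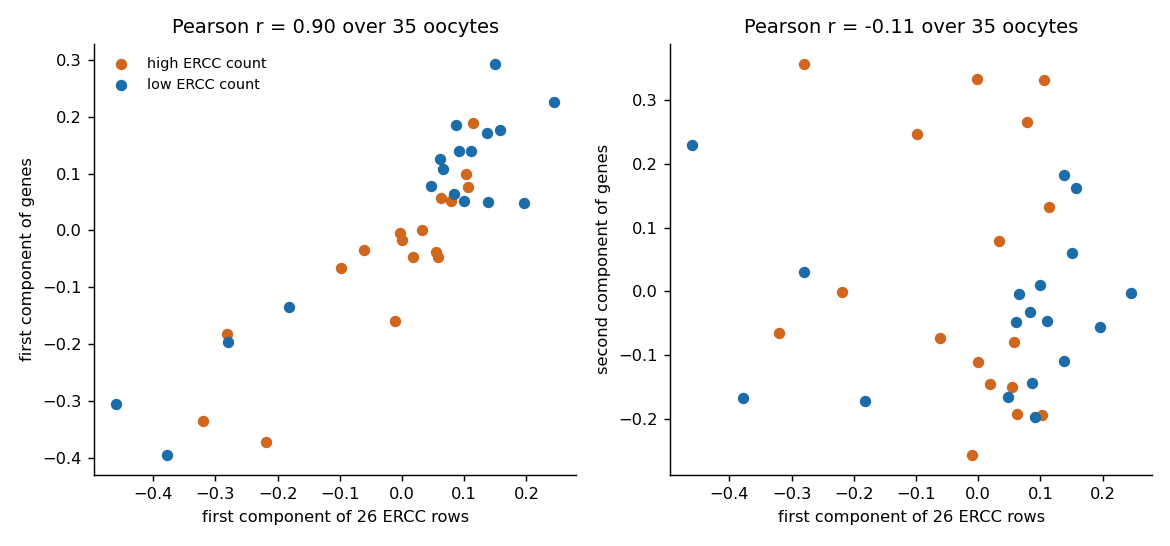
First (left) and second (right) principal component of 8230 genes against the first component of 26 ERCC rows. Each point is 1 of 35 oocytes, coloured by ERCC set: the first gene component lies along the ERCC component (r = 0.90), and the second does not (r = -0.11).

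The 12 genes of smallest ratio had mean normalised counts of 100.5 to 775. Akap7, a protein kinase A anchoring protein, stayed between 75.8 and 107 CPM (median 90.9), with a CV of 0.0753 against a median of 0.167 for near ERCC rows (ratio 0.452). The ERCC row nearest in mean, at 895 counts, had a CV of 0.0720, so the ratio depends on the rows taken. It was 0.456 with 15 nearest rows and 0.485 with the fitted ERCC curve. With 5 nearest rows it was 0.531, with the robust CV 0.647, and in the oocytes of high and low ERCC count 0.520 and 0.760. Crb3, of the Crumbs polarity complex, stayed between 59.0 and 92.3 CPM, and Med11, a Mediator subunit, between 51.5 and 83.5 CPM, both at a ratio of 0.639. The other protein-coding genes among the 12 of smallest ratio were Osgepl1, a mitochondrial tRNA-modifying enzyme, Fopnl, a centrosomal protein, R3hdm1, Zfp280d, Vma21, an assembly factor of the vacuolar ATPase, Mcm9, a helicase, and Gm20075, with ratios from 0.563 to 0.645. All but Akap7 and Gm5844, at 0.480, were above the narrow threshold.

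Of the 7 narrow genes, 5 were processed pseudogenes, among them Gm5844, Gm11993, Mdm4-ps and Gm13803. They were singled out after their values were seen. The 245 processed pseudogenes assessed had a median ratio of 0.93, and 98 of them (40.0%) had a larger CV than the median of near ERCC rows, against 1.32 and 84.6% for 10075 protein-coding genes. Reads from a parent gene can be counted at such copies, which leaves their values uncertain. After thinning to equal totals 0 genes were narrow.

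Gene lists were read against 12.1% wide and a median ratio of 1.29 over all genes assessed. Oocyte markers and maternal effect genes had 24 wide members of 43 assessed and a median ratio of 2.15, and all 24 were among the 36 members with a mean of at least 1000 counts, where 49.0% of all genes were wide. Besides Tle6, Nlrp5 and Zp1 they included Zar1, an mRNA-storing protein, at 417 to 2275 CPM (ratio 4.46), Trim28, a corepressor, at 104 to 411 CPM (4.44), and Dppa3 (3.56). Zp2 (3.64) and Zp3 (3.53) of the zona pellucida were wide too, as was Ooep (3.46), a further member of the subcortical maternal complex. Padi6 (2.84), of the same complex, was at 717 to 2497 CPM, Bmp15 (2.33), a partner of Gdf9, at 2484 to 6204 CPM, and Dnmt1 (3.14), the maintenance DNA methyltransferase, at 298 to 875 CPM. The transcription factor gene Figla (0.88) and Zar1l (0.99) had the smallest ratios. Of the 43, 10 had an r of at least 0.7 in size with the ERCC component, where such genes were 6.34% of all genes assessed and 17.3% of those with a mean of at least 1000 counts. They included Dppa3 at -0.89 and Padi6 at 0.85.

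Genes of meiotic maturation and MII arrest had 17 wide members of 43 (median ratio 1.65), 14 of them among 25 with a mean of at least 1000 counts. Ube2s, which extends ubiquitin chains for the anaphase-promoting complex, led at 66.2 to 309 CPM (ratio 4.83), before the kinase gene Mapk3 at 20.6 to 210 CPM (4.01). Espl1 (separase) had a ratio of 3.63 and Pttg1 (securin, its inhibitor) one of 3.24 at 1588 to 4162 CPM. Ccnb1, the cyclin whose loss ends the arrest, was at 2169 to 3742 CPM (2.09) and Ccnb2 at 188 to 442 CPM (2.89). Fbxo43, the inhibitor that holds the arrest, was at 279 to 527 CPM (2.03). Sgo2a, which guards centromeric cohesin, had the smallest ratio (0.73), and Bora was at 0.95.

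Genes of maternal mRNA storage, translation and decay had 22 wide members of 47 (median ratio 1.62), 17 of them among 22 with a mean of at least 1000 counts. Pan3, a subunit of a deadenylase, led at 153 to 536 CPM (ratio 4.59), then Pabpn1l, an oocyte poly(A)-binding protein, at 122 to 430 CPM (4.57), Cnot6l, a catalytic subunit of the CCR4-NOT deadenylase, at 282 to 1035 CPM (4.47) and Ybx3, a cold shock domain protein, at 37.5 to 309 CPM (4.41). Cpeb1, which governs cytoplasmic polyadenylation, was at 225 to 671 CPM (2.86), and Ybx1 at 244 to 641 CPM (3.11). The scaffold gene Cnot1 and its partner Cnot2 both had a ratio of 0.88. The list summed to 14886 to 18121 CPM. With the fitted ERCC curve the wide members of these last 3 lists were 12, 7 and 9.

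In the list of meiotic cohesin and spindle genes, 13 of 42 were wide (median 1.49), and 9 of the 18 with a mean of at least 1000 counts, a share close to the 49.0% of all such genes. The list was led by Wapl, which releases cohesin, at 308 to 989 CPM (ratio 4.13). The cohesin subunits differed: Rad21 had a ratio of 2.33, Smc3 of 2.01 and Smc1a of 0.83. Among genes of sperm binding, cortical granules and egg activation 5 of 19 were wide (median 1.53), all among the 6 with a mean of at least 1000 counts. They included Astl, the protease that hardens the zona, at 389 to 1397 CPM (3.79) and the kinase gene Fyn (3.85). The mitochondrially encoded list had 10 wide of 15 (median 2.43), and 8 of 8 at a mean of at least 1000 counts. Mt-Cytb (5.52) and the ribosomal mt-Rnr1 (4.86) led it, and mt-Co3 (0.88) and mt-Co2 (0.90) were lowest.

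Housekeeping lists had lower counts. Cytosolic ribosomal proteins had 4 wide of 73 (median 1.06), of which Rplp1 at 10.1 to 79.2 CPM (ratio 2.92) and Rpl41 (2.47) led. Nuclear-encoded oxidative phosphorylation had 3 of 70 (median 1.21), with Uqcr11 at 5.91 to 80.2 CPM (3.31). That count was 1 without oocyte 30 and 5 without oocyte 27 or 35, and it was 11 without the 5 oocytes least like the others, 12 when a gene had to lie above all 9 near rows and 15 in the oocytes of high ERCC count. Proteasome subunits had 3 of 32 (median 1.13), and their sum stayed within 3313 to 4142 CPM. Antioxidant and iron genes had 0 of 26 (median 1.27), with the ubiquitin ligase adaptor gene Keap1 (1.97) nearest to the threshold, and 1 without oocyte 1, 9, 11, 13, 16, 19, 20, 29, 31 or 35. Apoptosis genes had 1 of 23, the survival gene Bcl2l1 (2.03), and p53 targets and DNA damage genes 1 of 24, Mdm4 (2.10). The apoptosis count was 0 without oocyte 5, 13, 15, 17, 24, 27 or 30, and the p53 count 0 without oocyte 19, 24 or 33 and 2 without oocyte 6. The median mean counts of these lists, 62.4 to 507, lie far below the 3979 of the oocyte markers, in count classes where 2.69 to 11.1% of all genes were wide. At a mean of at least 1000 counts, 2 of 3 ribosomal, 0 of 6 oxidative phosphorylation and 2 of 9 proteasome genes were wide. So were 0 of 5 antioxidant and iron, 0 of 1 apoptosis and 1 of 7 p53 and DNA damage genes, against 49.0% of all such genes. These are few genes in each list. What part the low counts had in the difference from the oocyte markers was not tested.

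The remaining lists were small. Heat shock and unfolded protein response genes had 7 wide of 28 (median 1.66). At a mean of at least 1000 counts 5 of 11 were wide, a share close to the 49.0% of all such genes. Hspa5, the chaperone of the endoplasmic reticulum, led at 63.0 to 353 CPM (ratio 4.23). The Oog and Pramel family had 2 of 10, Oog3 at 1850 to 6453 CPM (4.43) and Oog4 (2.53), or 4 wide without oocyte 7, 12, 13, 18, 21, 25 or 31, and its members are close copies whose reads can be split. Immediate early genes had 1 of 11, Dusp1 (2.57), and histone cluster genes 1 of 8, Hist1h2bc (2.06), or 0 without oocyte 3, 10, 30 or 35 and 2 without oocyte 13. Genes of zygotic genome activation had 3 of 9, Nelfa (3.003), Sp110 (2.53) and Tcstv1 (2.32). Imprinted and X-linked regulatory RNAs had 2 of 13, Phlda2 at 3.36 to 76.6 CPM (3.27) and Mest (2.54). At a mean of at least 1000 counts, wide members were 2 of 4 in the Oog and Pramel family and 2 of 2 in zygotic genome activation. They were 1 of 1 among immediate early genes and 1 of 1 among imprinted and X-linked regulatory RNAs.

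A search for genes present in some oocytes and missing in others asked for no count in at least 5 oocytes and at least 50 CPM in at least 5, and 0 genes met it. At 20 CPM in place of 50, 1 gene was found, Chrdl1, which encodes a secreted antagonist of bone morphogenetic proteins. It had no count in 9 oocytes, a median of 2.51 CPM and a highest value of 44.5 CPM, with 8 oocytes at 20 CPM or more. Of 28146 entries with any count, 10074 had one in each oocyte.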

How the data were processed

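Per the labels, polyadenylated RNA of 35 single young MII oocytes was made into Smart-seq2 libraries, with no molecular identifier named. The authors deposited whole-number read counts per gene, not normalised, in 1 table of 54658 gene entries and 92 ERCC entries. STAR 2.7.10b, HTSeq 0.13.5 and mm10 are named per the submitters' processing notes, with no role given. No source used here gives the annotation, the strand setting or any filter. Columns of other oocytes and the pools were not used here, and 1 unnamed column held no values.

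ERCC counts stayed out of gene totals. Lengths, types and GC content came from GENCODE M21 (GRCm38, which mm10 names) and matched 53994 entries with 99.8% of counts. Size factors were medians of ratios, from 10074 genes and, separately, 40 ERCC rows. The CV of each gene was set against the median CV of the 9 nearest of 65 ERCC rows with a mean of at least 1 count. Principal components used genes with a mean of at least 5 CPM and a pseudocount of 1 CPM. Python 3.11.15, numpy 2.4.6, pandas 2.3.3 and scipy 1.17.1 were used, and the code was tested on simulated counts. No p-value was computed, because the oocytes are 1 sample. Correlations over oocytes are descriptions.

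The oocytes, the 18 gene lists, the 5 marker lists and the rules were chosen with earlier results of these data known. Genes named were the 20 most abundant per length, the 5 with the highest counts, the 20 of largest and 12 of smallest ratio with a mean of at least 100 counts, the 8 of highest and lowest rho with the gene to ERCC ratio, wide and extreme list members and markers. Genes at the ends of components, between ERCC sets and those said to be singled out were added after their values were seen. Alternatives in scaling, ERCC reference, count minimum, measure of spread and oocytes left out are given in the closing section. PCR reads without molecular identifiers are not independent molecules.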

Additional observations from a re-analysis of the deposited data

How the results depend on the processing

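No paired analysis was possible because 1 sample was described and no test was made. Of 128 alternative values of the main results, 73 met a tolerance set for them, and the others are given here. Where no cause is named, the cause was not tested. Counts of genes were allowed a fold change, so 1951 wide genes with the robust CV met it against 1370. For the median gene counts per ERCC count the tolerance was the SD between oocytes, 40.1. Medians of 104 and 33.6 in the oocytes of low and high ERCC count thus met it against 63.7. The 73 is therefore no measure of how stable the results are. The alternatives by ERCC set, without the 5 oocytes least like the others and with the SD of log2 counts were chosen after seeing the data. The 1370 wide genes became 9168 with ERCC size factors for genes, 815 with a fitted ERCC curve, 874 with 15 nearest ERCC rows, 2703 when a gene had to lie above all 9 near rows, and 2977 with the SD of log2 counts after removal of the first ERCC component. Leaving out 1 oocyte at a time gave 1284 to 1509. As a share of genes assessed, 12.1% became 78.0, 7.20, 7.72, 23.9 and 26.3% in the same order, 15.05% with 5 nearest rows, 16.4% with a minimum of 50 counts, 8.86% with a minimum of 1, 17.2% with the robust CV, 15.8% after thinning, 16.1% with the SD of log2 counts, 14.4 and 16.3% in the oocytes of low and high ERCC count, and 16.9% without the 5 oocytes least like the others. The 7 narrow genes became 0 with ERCC size factors and after thinning, 122 below all near rows, 4 and 40 with minimums of 50 and 1, 28 with the robust CV, 42 and 36 with the SD of log2 before and after removal of the ERCC component, 14 in the oocytes of low ERCC count, and 4 to 13 when 1 oocyte was left out.

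The median ratio of 1.29 became 2.80 with ERCC size factors, 1.23 with a minimum of 1 count, 1.42 with the robust CV, 1.40 after thinning, 1.42 in the oocytes of high ERCC count, 1.40 without the 5 oocytes, and 1.57 with the SD of log2 after removal of the ERCC component. In the oocytes of low and high ERCC count alone, the CV of gene counts per ERCC count was 0.214 and 0.248 and its highest over lowest value 2.31 and 2.67; without 1 oocyte that value was 6.005 to 8.04. The 20 abundant genes held 13.1% with no length scaling, 20.5% with the longest transcript as length and 22.2% without mitochondrially encoded genes. The 33 and 41 genes of high and low rho became 354 and 392 in the oocytes of low ERCC count. In those of high ERCC count they were 157 and 303. A large rho is more common with fewer oocytes, and the part of this in these counts was not tested. Over both sets, 11 genes of high rho were left without the 2 oocytes farthest from the median ratio. Without 1 oocyte the 33 and 41 genes were 17 to 58 and 26 to 73. The median r between oocytes was 0.969 with a pseudocount of 10 CPM. Among the 20 genes of largest ratio, 3 had a ratio under 2 in an alternative: Gm28661 (1.27) and Zp1 (1.82) with the robust CV, and Actr2 (1.76) with the SD of log2 after removal of the ERCC component.

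Depth limits the genes of low count. The smallest total was 5480050, and spike-in totals of 70141 to 427387 left 65 ERCC rows, of which few lay above 1000 counts, so the ratios of abundant genes rest on few spike-ins.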
